A study of Mus musculus with 2 samples.

Results

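The miR-130 and miR-301 family was examined in J1 mouse embryonic stem cells (mESCs) grown with or without a MEK inhibitor. Its members were taken by name from the hairpins of the GENCODE M21 annotation, as Mir130a, Mir130b, Mir301 (miR-301a) and Mir301b, which made 4 of the 1174 named miRNA hairpins. J1 is an established mESC line, grown here on gelatin without feeder cells and with 1000 U/mL of LIF, the cytokine that maintains self-renewal. Control cells received DMSO, and PD cells received 1 μM of PD0325901 (PD), which inhibits MEK and so blocks ERK1/2 signaling, both for 24 h. Each treatment was done in 3 independent experiments, whose RNA was combined into 1 pool, and 1 small RNA library was sequenced per pool. There were thus no replicates, the experiments within a pool cannot be told apart, and no difference between the libraries could be tested. All 95% intervals given below are exact (Clopper-Pearson for shares and folds, Poisson for levels) and cover the counting of reads only.

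The deposited files gave the number of clean reads for each distinct sequence (tag) of 18 to 44 nt. Levels are given in RPM, a tag's reads scaled to 1000000 clean reads of its library. There were 18870345 clean reads for control and 20944808 for PD, and 3 reads, the limit that a count of 0 allows, equal 0.159 RPM and 0.143 RPM. Tags that matched a named hairpin perfectly amounted to 11.56% of clean reads in control cells and 10.08% in PD cells. Clean reads of 28 to 32 nt made up 7.11% and 17.0%, and those of 20 to 24 nt made up 63.0% and 52.0%, so the libraries differed in composition beyond their miRNAs. The 8 listed hairpins of embryonic stem cells were those of miR-290a, miR-291a, miR-292, miR-294, miR-295, miR-302a, miR-302b and miR-302d. All 8 had reads in both libraries, together 20783 RPM in the control and 18066 RPM in PD. The list left out miR-293, although its 3p arm had a higher level than any arm of these 8 in both libraries. The 4 haematopoietic hairpins summed to 32.3 and 27.7 RPM with Mir223 at 0 in both, the endothelial Mir126a gave 3.66 and 2.72 RPM, and the 4 fibroblast and smooth muscle hairpins summed to 209 and 179 RPM with Mir214 at 0 in the control.

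A miRNA hairpin is cut by Drosha and Dicer into a duplex of a 5p and a 3p arm, one of which is usually kept by an Argonaute protein. The bases 2 to 8 of the kept strand, the seed, choose its target mRNAs by pairing, so that miRNAs with the same seed form a family with overlapping targets. The miR-130 and miR-301 family is known as a repressor of Pparg, the regulator of adipocyte formation, and for its action in blood vessels. Extra bases that no hairpin encodes are often added to the 3′ end of a mature miRNA by terminal uridylyl and adenylyl transferases, and exonucleases can shorten that end.

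The family is defined by the seed of its 3p arms, and the most frequent tag of each 3p arm is shown with its seed in capitals, to let the shared start and the differing ends be compared.
miR-130a-3p: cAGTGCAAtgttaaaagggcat
miR-130b-3p: cAGTGCAAtgatgaaagggcat
miR-301a-3p: cAGTGCAAtagtattgtcaaagcat
miR-301b-3p: cAGTGCAAtggtattgtcaaagcat
All 4 carried the seed AGTGCAA. The first pair is 22 nt long and is identical at 20 of 22 bases, with the first difference at position 11 from the 5′ end. The miR-301 pair is 25 nt long, and its first 22 bases are identical at 21 of 22, with the difference at position 10. Between the pairs, miR-130a-3p and miR-301a-3p share 12 of 22 bases.

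The 5p arms do not share 1 seed, and their most frequent tags are shown for that difference, again with bases 2 to 8 in capitals.
miR-130a-5p: gCTCTTTTcacattgtgctact
miR-130b-5p: aCTCTTTCcctgttgcactact
miR-301a-5p: gCTCTGACtttattgcactact
miR-301b-5p: gCTCTGACtaggttgcactact
miR-301a-5p and miR-301b-5p share the seed CTCTGAC and 19 of 22 bases. miR-130a-5p has CTCTTTT and miR-130b-5p has CTCTTTC, which agree at bases 2 to 7. RefSeq (GRCm38.p6) lists mature sequences for 7 of the 8 arms, and 6 of these are identical to the most frequent tag. The exception is miR-301a-3p, whose RefSeq sequence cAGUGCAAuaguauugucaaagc is 23 nt long, so that the most frequent tag in J1 mESCs ran further at its 3′ end.

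On GRCm38, Mir130a (ENSMUSG00000065484.1) lies on the minus strand at chr2:84741115-84741178 and overlaps no other annotated gene. Mir130b (ENSMUSG00000065572.1, chr16:17124061-17124142) and Mir301b (ENSMUSG00000076288.1, chr16:17124400-17124496) lie 257 bases apart on the minus strand in an intron of 2610318N02Rik, which is read from the same strand. Mir301 (ENSMUSG00000065589.1) lies on the plus strand at chr11:87113004-87113089 in an intron of Ska2, a gene of the spindle and kinetochore, also on the same strand. In all, 78 distinct tags matched the 4 hairpins, 64 in each library. Of these 78 tags, 0 matched another named hairpin or another GENCODE transcript, so that each read could be given to 1 member. Reads outside the arms numbered 0 to 3 per hairpin and library.

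miR-130a-3p was the most abundant form of the family in both libraries, with miR-130b-3p next and the 5p arm of miR-301a after it. miR-130a-3p had 12073 reads in the control (640 RPM, interval 628 to 651) and 11860 in PD (566 RPM, 556 to 577). miR-130b-3p had 4755 reads (252 RPM, 245 to 259) and 4399 (210 RPM, 204 to 216). In the control library they stood at ranks 38 and 61 of the 510 detected miRNAs, which had at least 1 RPM in either library.

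The miR-301 hairpins gave far fewer reads with the family seed. miR-301a-3p had 129 reads in the control (6.84 RPM, 5.71 to 8.12) and 166 in PD (7.93 RPM, 6.77 to 9.23). miR-301b-3p had 114 reads (6.04 RPM, 4.98 to 7.26) and 141 (6.73 RPM, 5.67 to 7.94). The intervals of these neighbours in the order overlapped in each library, and they ranked 302 and 314 in the control. These counts leave out tags with extra 3′ bases, described further on. With them, miR-301b-3p had 20.9 RPM in both libraries.

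Among the 5p arms, that of miR-301a was the highest. miR-301a-5p had 1170 reads in the control (62.0 RPM, 58.5 to 65.7) and 1323 in PD (63.2 RPM, 59.8 to 66.7). The other 5p arms were low, with 150 and 149 reads for miR-130b-5p (7.95 and 7.11 RPM), 90 and 44 for miR-130a-5p (4.77 and 2.10 RPM), and 33 and 45 for miR-301b-5p (1.75 and 2.15 RPM). The level of miR-130b-5p overlapped within counting error with those of miR-301a-3p and miR-301b-3p in both libraries.

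**Figure D1:**
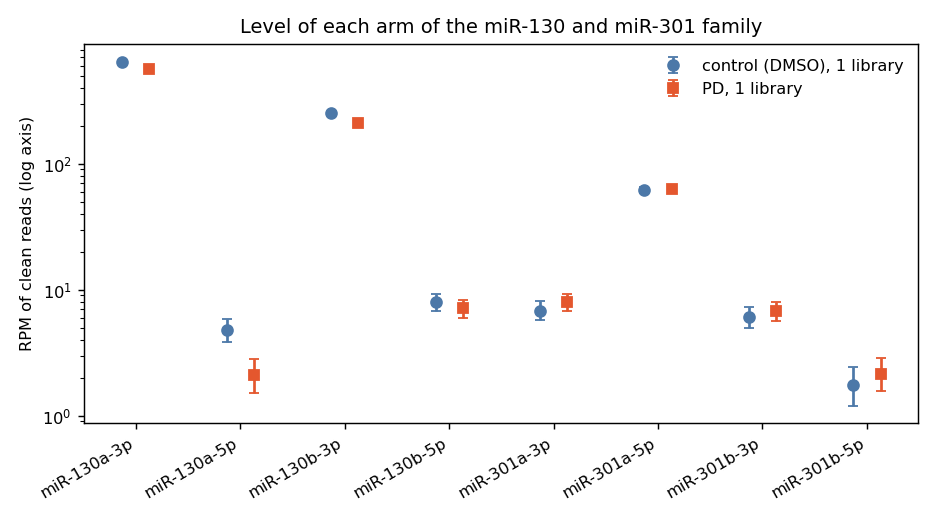
Level of the 8 arms in RPM of clean reads on a log axis, in the control library (circles) and the PD library (squares), with exact Poisson 95% intervals for counting error. The 3p arms of miR-130a and miR-130b lie between 210 and 640 RPM, miR-301a-5p near 62 and 63 RPM, and the other 5 arms at or below 7.95 RPM. Tags with extra 3′ bases are left out.

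The hairpins differed in the arm that gave most of their reads. Which arm an Argonaute protein kept was not measured, nor was how well each sequence enters a library. The 3p arm held 99.26% (99.09 to 99.40) of the miR-130a reads in the control and 99.63% (99.50 to 99.73) in PD, and 96.94% and 96.72% of the miR-130b reads. For miR-301b it held 77.6% (69.9 to 84.0) and 75.8% (69.0 to 81.8), and more when tags with extra 3′ bases, described further on, were counted. In miR-301a the balance was turned round, and the 3p arm, which carries the family seed, held 9.93% (8.36 to 11.7) in the control and 11.2% (9.59 to 12.9) in PD. Thus miR-301a-5p outnumbered miR-301a-3p by 9.07 to 1 in the control and 7.97 to 1 in PD. The share of the 3p arm differed between the libraries beyond counting error only for miR-130a, where the ratio of 3p to 5p was 134 in the control and 270 in PD, a change that follows from 90 against 44 reads of the 5p arm.

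The 3p pool of the family was mostly miR-130a-3p, with 70.7% of the perfectly matching reads in the control and 71.6% in PD. miR-130b-3p made up 27.9% (27.2 to 28.5) and 26.6% (25.9 to 27.2). The miR-301 members made up 0.756% and 1.00% (miR-301a-3p) and 0.668% and 0.851% (miR-301b-3p). Among the 5p reads of the family, miR-301a-5p made up 81.1% and 84.7%.

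Mir130b and Mir301b, although 257 bases apart in the same intron, gave unequal numbers of reads. For perfectly matching reads, the ratio of miR-130b-3p to miR-301b-3p was 41.7 in the control and 31.2 in PD. That of their 5p arms was 4.55 and 3.31. With the tags that carry extra 3′ bases, described further on, the ratio of the 3p arms was 13.6 and 11.4. The order of the neighbours was the same for both arms, while the size of the ratio was not.

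To ask whether the family responded to MEK inhibition, the fold of RPM (PD over control) of each arm was set beside all detected miRNAs. A fold of 1.5 either way was passed by 1 of the 8 arms, miR-130a-5p, while 19.4% of the 510 detected miRNAs passed it, 13.1% downward and 6.27% upward. The level of miR-130a-5p was 0.440 times that of the control (interval 0.300 to 0.639), a log2 fold of -1.18, which gave it rank 10 counted from the lowest fold. This arm had 90 and 44 reads, and no replicate stands behind it.

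The abundant 3p arms were close to the median of all miRNAs. miR-130a-3p in PD was 0.885 times the control (0.863 to 0.908) and miR-130b-3p 0.834 times (0.800 to 0.869), with log2 folds of -0.18 and -0.26. The median log2 fold over the 510 detected miRNAs was -0.16 (quartiles -0.40 and 0.06), and 67.5% of them were lower in PD, so that both arms lay within the middle part of the distribution. Their direction depended on the scaling. Relative to the reads that match a miRNA hairpin, the fold of miR-130a-3p was 1.01 and that of miR-130b-3p 0.956, and relative to the clean reads of 20 to 24 nt the folds were 1.07 and 1.01.

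The remaining arms had folds in RPM with intervals that included 1. These were 1.02 (0.941 to 1.10) for miR-301a-5p, 1.16 (0.916 to 1.47) for miR-301a-3p, 1.11 (0.864 to 1.44) for miR-301b-3p, 1.23 (0.767 to 1.99) for miR-301b-5p and 0.895 (0.709 to 1.13) for miR-130b-5p. Under the other 4 denominators (miRNA reads, reads of 20 to 24 nt, TMM and DESeq2 size factors), the intervals of both miR-301a arms lay above 1. There the fold of miR-301a-5p was 1.14 (1.05 to 1.23) at the lowest and 1.23 (1.14 to 1.34) at the highest, and that of miR-301a-3p 1.30 (1.02 to 1.64) and 1.40 (1.11 to 1.78). For miR-301b-3p the interval lay above 1 with the reads of 20 to 24 nt (1.35, 1.05 to 1.74) and included 1 with the other 3. The fold of miR-130b-5p was then between 1.00 and 1.08. For miR-301b-5p, whose interval reached past 1.5-fold, a change of that size could not be told from none at this depth. Under the other 4 denominators the intervals of miR-301a-3p and miR-301b-3p also reached past 1.5-fold.

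The 3p arms summed over the family had 17071 reads in the control (905 RPM) and 16566 in PD (791 RPM), a fold of 0.874 (0.856 to 0.893) in RPM. The same reads gave 1.00 (0.981 to 1.02) relative to miRNA reads and 1.06 (1.04 to 1.08) relative to reads of 20 to 24 nt, so the direction of the sum was set by the denominator. These denominators raised the log2 fold of every miRNA by 0.20 and 0.28. The summed 5p arms had 1443 and 1561 reads (76.5 and 74.5 RPM), a fold of 0.975 (0.907 to 1.05).

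**Figure D2:**
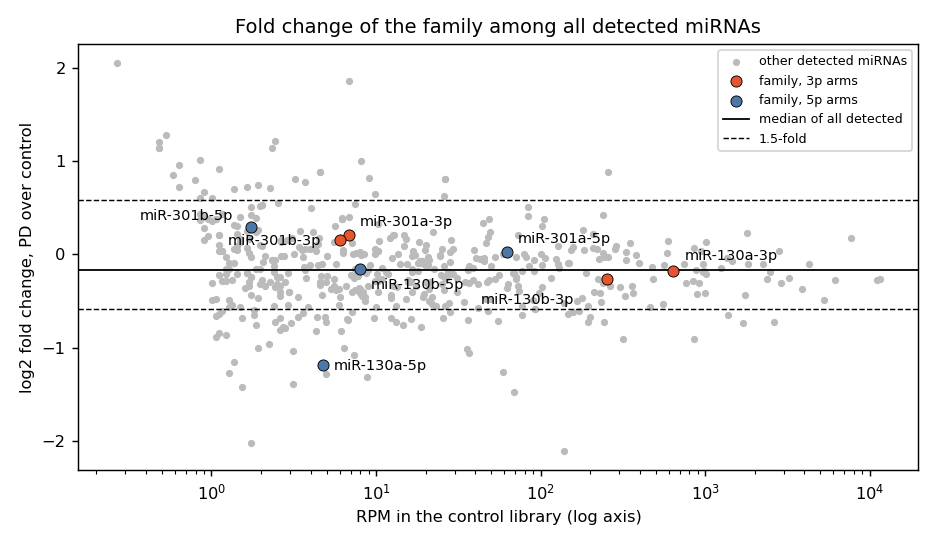
Log2 fold of RPM (PD over control) against the RPM in the control library (log axis) for the 510 detected miRNAs (grey), the 3p arms of the family (red) and its 5p arms (blue), with 1 library per group. The solid line is the median of all detected miRNAs at -0.16 and the dashed lines mark 1.5-fold, and only miR-130a-5p of the 8 arms lies beyond them.

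The libraries differed more in the length of the miR-130 tags than in their number. The shorter tags of miR-130a-3p are shown because their counts, unlike that of the full 22-nt tag, were lower in PD. They keep the seed and lack 1 to 4 bases at the 3′ end.
miR-130a-3p, 21 nt: cAGTGCAAtgttaaaagggca
miR-130a-3p, 20 nt: cAGTGCAAtgttaaaagggc
miR-130a-3p, 19 nt: cAGTGCAAtgttaaaaggg
miR-130a-3p, 18 nt: cAGTGCAAtgttaaaagg
The full 22-nt tag had 7795 reads in the control (413 RPM) and 9908 in PD (473 RPM), a fold of 1.15 (1.11 to 1.18). The 21-nt tag had 502 and 297 reads, a fold of 0.533, and the 20-nt tag had 2743 and 1308, a fold of 0.430 (0.402 to 0.459). The 19-nt tag had 660 and 242 reads, a fold of 0.330, and the 18-nt tag had 331 and 57, a fold of 0.155 (0.115 to 0.206). The shorter the tag, the lower was its fold, and the full tag was the only one of the 5 that was higher in PD.

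Counted together, tags of 18 to 20 nt made up 31.1% (30.2 to 31.9) of the miR-130a-3p reads in the control and 13.6% (12.97 to 14.21) in PD. They had 199 RPM in the control and 76.9 RPM in PD, a fold of 0.387 (0.365 to 0.411), while tags of 21 nt or more had 441 and 489 RPM, a fold of 1.11 (1.08 to 1.14). Its fold in RPM was thus below 1 with the short tags and above 1 without them.

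miR-130b-3p had fewer short tags, and these too were lower in PD. Tags of 18 to 20 nt made up 9.46% (8.65 to 10.3) of its reads in the control and 3.14% (2.64 to 3.70) in PD, a fold in RPM of 0.276 (0.227 to 0.335). Its 22-nt tags had 4087 and 4057 reads, a fold of 0.894, so that, unlike for miR-130a-3p, the longer tags were also lower in RPM. That direction depended on the denominator. Scaling to miRNA reads or to reads of 20 to 24 nt raises every log2 fold by 0.20 and 0.28. In miR-301a-5p the short share was 1.79% (1.11 to 2.73) and 0.983% (0.524 to 1.67), and its 21-nt tags had 221 and 184 reads against 928 and 1125 of 22 nt. The 3p arms of the miR-301 members had 1 to 3 reads of 18 to 20 nt in each library, too few to compare.

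**Figure D3:**
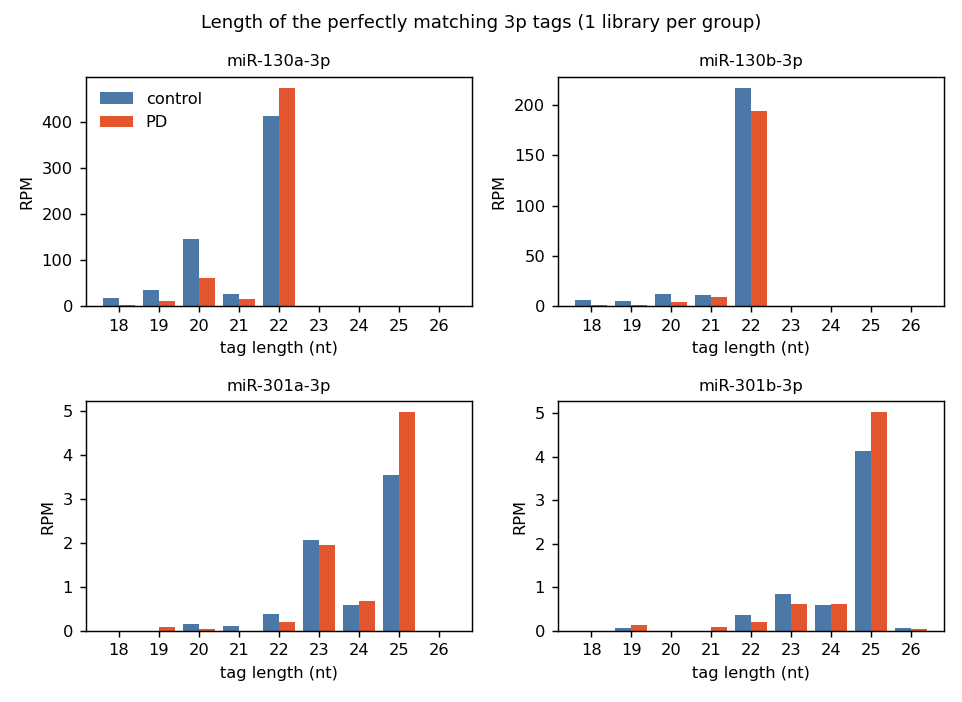
RPM of the perfectly matching tags by length in nt for the 3p arms of the 4 members, in the control (blue) and PD (red) libraries, each panel with its own axis from 0. The miR-130 arms peak at 22 nt and the miR-301 arms at 25 nt, and the bars at 18 to 20 nt of miR-130a-3p and miR-130b-3p are lower in PD.

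A lower share of short tags in PD was found for most miRNAs. Of the 246 arms with at least 200 reads in both libraries, 192 (78%) had a lower share of 18 to 20 nt in PD, as did all 3 family arms with that many reads. The median share was 4.82% in the control and 3.43% in PD, and the median difference was -0.94 percentage points (quartiles -3.62 and -0.08). The difference for miR-130a-3p was -17.5 points. A larger fall was found in 9 of the 246 arms, and in 4 of the 130 arms with at least 1000 reads. A fall in points cannot exceed the share in the control. With a median of 4.82% there, most arms could not fall as far, and falls relative to the starting share were not ranked. Over all miRNA reads, tags of 18 to 20 nt made up 9.49% in the control and 5.38% in PD, and over all clean reads 21.3% and 18.6%. The lengths of the whole library thus moved with this result, and their part in it was not tested.

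**Figure D4:**
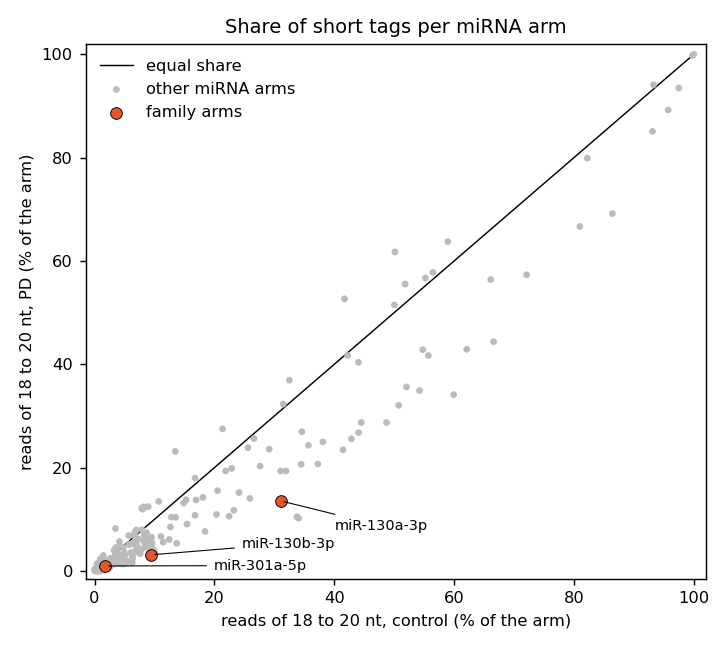
Share of reads of 18 to 20 nt in the control (x axis, %) and in PD (y axis, %) for the 246 miRNA arms with at least 200 reads in both libraries (grey) and the 3 family arms among them (red), with the line of equal shares. miR-130a-3p lies at 31.1% and 13.6%, among the arms farthest below the line. An arm can lie below the line by no more than its share in the control.

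The first base of the tags, which sets the seed, varied little. In miR-130a-3p, 0.282% of the reads in the control and 0.320% in PD started 1 base later, and in miR-130b-3p 1.91% (1.54 to 2.34) and 2.50% (2.06 to 3.01) did. The most frequent of these later starts are shown because they shift the seed to GTGCAAT, in capitals.
miR-130a-3p, 1 base later: aGTGCAATgttaaaagggcat
miR-130b-3p, 1 base later: aGTGCAATgatgaaagggcat
The first had 21 reads in the control and 34 in PD, and the second 78 and 101. In miR-301b-3p 10 of 114 reads in the control and 7 of 141 in PD started 1 base later. These totals leave out tags with extra 3′ bases, described further on, which were counted only with the usual first base. With them, miR-301b-3p had 385 and 430 reads with that first base. The intervals of the libraries overlapped for each arm.

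Matching over the whole length leaves out tags with extra bases at the 3′ end. Such tails were counted separately, as 1 to 3 bases that differ from the hairpin after at least 18 matching bases from the usual first base. They were most frequent in miR-301b-3p, where 281 of 385 reads in the control (73.0%, 68.3 to 77.4) and 296 of 430 in PD (68.8%, 64.2 to 73.2) carried a tail. Tails of T alone (U in the RNA) made up 62.3% (57.3 to 67.2) and 60% (55.2 to 64.7) of the reads. For comparisons among arms, here and below, shares were taken over all reads of an arm, whatever their first base. This gave 60.8% and 59.0% of T tails for miR-301b-3p. Across the 309 arms with at least 100 reads the median was 1.46% in the control and 1.94% in PD. A higher share than that of miR-301b-3p was found in 0 arms in the control and 1 in PD.

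Frequent tailed tags of each 3p arm are shown with the tail in capitals, since the first of those listed outnumbered the untailed tag of its arm.
miR-301b-3p, T tail: cagtgcaatggtattgtcaaagcatT
miR-301a-3p, T tail: cagtgcaatagtattgtcaaagcatT
miR-130b-3p, T tail: cagtgcaatgatgaaagggcatT
miR-130b-3p, A tail: cagtgcaatgatgaaagggcatA
miR-130a-3p, A tail: cagtgcaatgttaaaagggcatA
miR-130a-3p, T tail: cagtgcaatgttaaaagggcatT
miR-130a-3p, C end: cagtgcaatgttaaaagggcaC
The tailed 26-nt tag of miR-301b-3p had 233 reads in the control (12.3 RPM) and 246 in PD (11.7 RPM), against 78 and 105 reads of the untailed 25-nt tag. The 26-nt tag that follows the hairpin had 1 read in each library. J1 cells come from another mouse strain than the reference genome, and whether the last base is encoded in their own genome was not tested.

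miR-301a-3p, which shares all but 1 of its first 22 bases with miR-301b-3p, had fewer tails. They made up 30.1% (23.5 to 37.3) of its reads in the control and 33.3% (27.5 to 39.6) in PD, mostly T alone (24.0% and 27.6%). Of the 309 arms, 15 in the control and 13 in PD had a higher share of T tails. The tailed tag shown above had 40 and 63 reads.

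In the miR-130 members tails were less frequent and more varied. miR-130b-3p carried tails on 11.6% and 11.7% of its reads, split between A (5.36% and 5.52%) and T (5.16% and 5.05%). miR-130a-3p carried them on 9.66% (9.16 to 10.2) in the control and 12.7% (12.1 to 13.2) in PD, the only 3p arm of the family whose intervals did not overlap between the libraries. Over the 309 arms the median share of tailed reads was 6.24% and 7.37%, and 114 arms in the control and 98 in PD had a higher share than miR-130a-3p. The most frequent was the tag that ends in C in place of the last T, with 429 reads in the control (22.7 RPM) and 772 in PD (36.9 RPM), a fold of 1.62 (1.44 to 1.83).

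Among 22-nt tags of miR-130a-3p that share the first 21 bases, the C end made up 5.20% (4.73 to 5.70) in the control and 7.21% (6.72 to 7.71) in PD. In miR-130b-3p, which ends in the same bases, 2 and 3 reads had the C end, or 0.0483% and 0.0731%. The A and T tails of miR-130a-3p did not show the same difference, with folds of 0.952 (0.829 to 1.09) for the A tail and 0.969 (0.813 to 1.16) for the T tail.

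With tails counted, miR-301b-3p had 395 reads in the control (20.9 RPM) and 437 in PD (20.9 RPM), a fold of 0.997 (0.868 to 1.15), where its fold without tails was 1.11. It then stood above miR-301a-3p, which had 184 and 248 reads (9.75 and 11.8 RPM), whereas the perfectly matching reads of the pair overlapped within counting error. The 3p arm then held 92.3% (89.3 to 94.6) and 90.5% (87.5 to 92.9) of the miR-301b reads, and 13.03% and 15.17% of the miR-301a reads. The share of miR-301b-3p in the 3p pool was 2.05% and 2.27%, and the ratio of miR-130b-3p to miR-301b-3p was 13.6 and 11.4. The order of miR-130a-3p and miR-130b-3p, at 708 and 648 RPM and at 285 and 237 RPM, was as before.

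**Figure D5:**
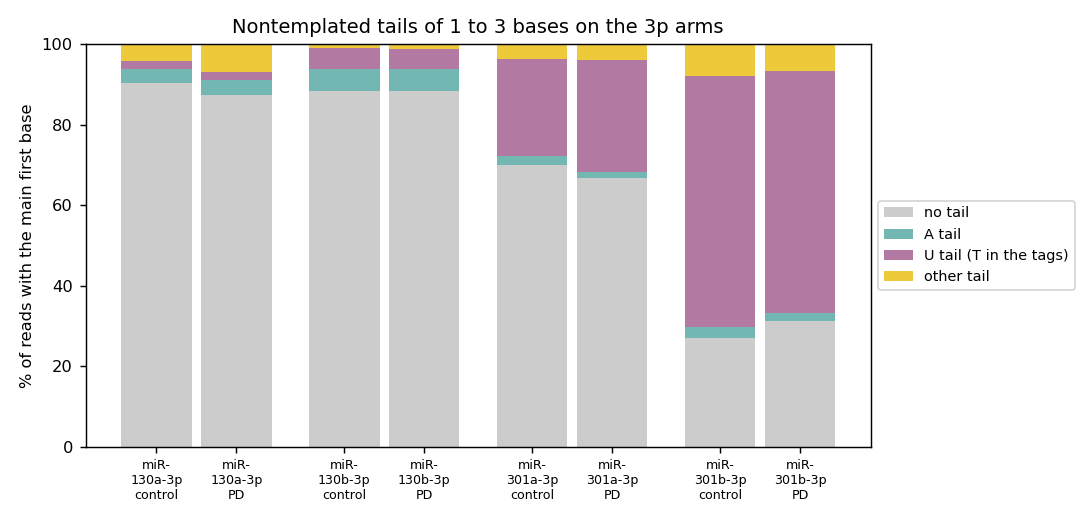
Share of reads (%) of the 3p arms that carry no tail, an A tail, a U tail (T in the tags) or another tail of 1 to 3 bases, in the control and PD libraries, over reads with the usual first base. Tails of U alone make up 62.3% and 60% of miR-301b-3p and 24.0% and 27.6% of miR-301a-3p.

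The seed AGTGCAA at bases 2 to 8 was then counted in all tags, whatever their match. It was found in 19291 reads in the control (1022 RPM) and 19192 in PD (916 RPM). Perfect tags of the 4 members made up 87.8% and 85.5% of these reads and their tailed tags 11.6% and 13.9%, while other named hairpins had 0 reads and 0.648% and 0.667% of the reads matched none. RefSeq lists the same seed in 4 further mature miRNAs (miR-721, miR-130c, miR-6341 and miR-6389), and these had 0 reads in both libraries, which allows up to 0.159 RPM in the control and 0.143 RPM in PD.

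The miR-148 and miR-152 family holds the first 6 of the 7 seed letters from 1 base further in, and its most frequent tags are shown with bases 2 to 8 in capitals for that comparison.
miR-148a-3p: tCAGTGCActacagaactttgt
miR-148b-3p: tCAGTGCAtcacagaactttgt
miR-152-3p: tCAGTGCAtgacagaacttgg
Its 3p arms summed to 190 RPM in the control and 156 RPM in PD, a fold of 0.821 (0.782 to 0.861) beside 0.874 (0.856 to 0.893) for the miR-130 and miR-301 family. Its members were at 34.5 and 28.1 RPM (miR-148a-3p), 77.1 and 49.2 RPM (miR-148b-3p, a fold of 0.638) and 78.7 and 78.8 RPM (miR-152-3p). miR-148b-3p also had a lower short share in PD, 34.1% against 59.9%, a larger difference in points than that of miR-130a-3p.

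Of the 59 miRNAs within 4-fold of the family's 3p level in the control, those with the nearest log2 fold were miR-363-5p (974 and 853 RPM), miR-191-5p (2472 and 2178 RPM) and miR-744-5p (1006 and 869 RPM). Their log2 folds differed from that of the summed 3p arms by 0.0023, 0.011 and -0.018. This likeness rests on 2 libraries that share their denominators and is given as a description.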

How the data were processed

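The authors sequenced gel-purified small RNA of J1 mESCs, cleaned the reads by quality and length, and deposited each distinct tag with its raw counts, neither aligned nor normalized. The shortest tag in the files was 18 nt. The deposited counts have no strand or coordinates. A last line with the library total and no tag was left out.

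Tags were matched to the GENCODE M21 hairpins (GRCm38) with Python 3.11.15. ViennaRNA 2.7.2 separated the arms, the most frequent tag of an arm over both libraries was taken as its mature form, and a tag counted for the arm if its overlap with that form was 16 nt or more. Hairpin copies with the same name were pooled, which gave 1144 mature miRNAs with reads. RPM used all clean reads, and 0.01 RPM stood in place of 0. Intervals were computed with SciPy 1.17.1. No test across miRNAs was run, since 1 library per group leaves no spread to estimate. Normalization by TMM (edgeR 4.0.16) and by size factors (DESeq2 1.42.0) was tried as an alternative, beside other denominators, tag rules and filters. The steps were tested on simulated data.

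The named miRNAs were both arms of all 4 members, the list of related seeds, and the 3 miRNAs nearest in fold. Members and lists were chosen with earlier results of these data known.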

Additional observations from a re-analysis of the deposited data

How the results depend on the processing

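The fold of the summed 3p arms was 0.874 relative to clean reads. It was 1.00 (1.002) relative to reads that match a hairpin, 1.06 (1.059) relative to reads of 20 to 24 nt, 0.977 with TMM and 0.980 with the size factors of DESeq2. It was 1.06 (1.062) for tags identical to the most frequent one, 1.04 for tags of 21 nt or more and 0.897 with tails counted. Of 96 folds of single arms recomputed under 12 alternatives, 79 stayed within the counting interval. Dividing shared tags and keeping unique tags only could not change a fold, since no tag matched another hairpin. The arms with few reads had wide intervals. The 17 folds outside were all of miR-130a-3p, miR-130b-3p and miR-301a-5p, which left their intervals under every denominator other than clean reads. The folds ranged from 0.885 to 1.15 for miR-130a-3p, from 0.828 to 1.01 for miR-130b-3p, from 0.997 to 1.35 for miR-301b-3p, from 0.400 to 0.534 for miR-130a-5p, from 1.14 to 1.40 for miR-301a-3p, from 1.00 to 1.23 for miR-301a-5p, from 0.894 to 1.08 for miR-130b-5p and from 1.02 to 1.49 for miR-301b-5p, and 1 arm passed 1.5-fold under every alternative. The count of all miRNAs past 1.5-fold was 99 of 510, of which 67.7% were lower in PD. It was 558 of 1144 without a filter, 35 of 267 at 10 RPM or more and 26 at a 2-fold threshold. Relative to miRNA reads it was 78, with 34.6% lower, and relative to reads of 20 to 24 nt it was 85, with 25.9% lower. Tags of 18 to 19 nt only were an alternative chosen after seeing the data. With them, 26 of 246 arms had a larger fall in short share, in percentage points, than miR-130a-3p. With 0 reads, up to 3 reads cannot be told from none. No paired analysis was possible because each treatment had 1 library.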
